A study of Mus musculus with 18 samples.

Results

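Mouse bone marrow derived macrophages treated with lipopolysaccharide (LPS) were compared with macrophages treated with albumin alone, both wild type (Nrf2+/+). The comparison takes the 3 LPS arrays and the 3 albumin arrays, lettered a to c in each group, and so 6 of the 18 arrays of the study. Marrow came from femurs and tibias of mice aged 8 to 10 weeks and was grown for 7 days with 10 ng/ml of recombinant M-CSF, on which marrow precursors become macrophages, in medium with 10% fetal calf serum. Per the labels, the albumin cells had 4 h of albumin without heme, and the LPS cells had 4 h of LPS, which the treatment protocol gives at 10 ng/ml. That protocol has albumin or heme-albumin precede LPS, while no albumin is mentioned for the LPS arrays. Whether the LPS cells had albumin beforehand is therefore not known, and albumin and time in culture may differ between the groups together with LPS. The design speaks of independent biological replicates but does not say whether they were separate mice or cultures of pooled marrow. The p-values therefore measure the spread between samples within groups, pooled over all 18 arrays, and not a known spread between mice. The other 12 arrays are LPS after heme-albumin in wild type (3), LPS in Nrf2-/- cells (4) and LPS after heme-albumin in Nrf2-/- cells (5). They entered the model for its estimate of spread, and the Nrf2-/- cells under LPS alone were also set beside the wild type. Each array carried 1 sample in Cy5 against RNA of untreated macrophages in Cy3, with no dye swap, and the genotype of the reference is not given.

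LPS, the endotoxin of Gram-negative bacteria, is bound by CD14 and presented to a complex of Toll-like receptor 4 (TLR4) and MD-2 on the macrophage surface. The adaptor MyD88 then drives NF-kB and MAP kinases, which switch on cytokine and chemokine genes. The adaptor TRIF acts from endosomes through IRF3, which switches on interferon beta, and secreted interferon in turn induces antiviral genes. Genes for inhibitors of these pathways are induced as well and limit the response.

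Values are log2 ratios to the untreated reference, differences are LPS minus albumin on the log2 scale with the standard error (SE) of the model, and a difference of 1 is a doubling. A gene was called at a limma p-value, adjusted over all 22485 genes measured, under 0.05. "Rose" and "fell" refer to called genes. Arrays within the LPS group correlated at 0.79 to 0.87 over genes, arrays within the albumin group at 0.55 to 0.58, and arrays of different groups at 0.00 to 0.05. The share of features listed at exactly 0 was 20.9%, 20.5% and 18.2% on albumin arrays a, b and c and 45.7%, 36.9% and 21.7% on LPS arrays a, b and c, so LPS arrays a and b had more such values than any albumin array. With values of 0 treated as missing 2588 genes were called higher and 3687 lower, and with genes at 0 on 3 or more of the 6 arrays left out 2692 and 3672, against 2768 and 3665 with all values. Of 14 measured macrophage markers 3 (21.4%) were called higher and 0 lower, against 12.3% and 16.3% of all genes. In 7 of them every LPS array lay above every albumin array, and in 2 every LPS array lay below. Over all genes this held for 19.9% and 27.3%. Their sum ran from -4.44 to -4.06 on the albumin arrays and from 3.82 to 4.77 on the LPS arrays. Without Cd14, the marker of the largest difference, the sums ran from -4.04 to -3.65 and from 1.78 to 2.42. Csf1r, which encodes the M-CSF receptor, stood at -0.70, -0.77 and -0.68 on the albumin arrays and at -0.92, -0.28 and -0.25 on the LPS arrays (0.23 ± 0.29, adjusted p = 0.634). These ratios show how the cells compare with the reference and not how abundant a transcript is.

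Of the 22485 genes, 6433 (28.6%) were called. The genes that rose numbered 2768 (12.3% of all) and those that fell 3665 (16.3%), with a median rise of 1.21 and a median fall of 1.08. The balance of rises and falls depended on the scaling: 43% of these calls were rises, against 50.1% (3199 rises and 3187 falls) after each array was scaled to the median of its values other than 0. Over all genes measured the median difference was 0. It was -0.121 with values of 0 as missing and -0.092 with genes at 0 on 3 or more of the 6 arrays left out. The largest changes were mostly rises: 144 genes rose by 4 or more and 18 fell by 4 or more, while 655 rose and 519 fell by 2 or more. Among all genes the 3 LPS arrays lay entirely above the 3 albumin arrays for 4478 (19.9%) and entirely below for 6130 (27.3%). Among the called genes this held for 2663 of those that rose and 3622 of those that fell. Where it is stated below for single called genes it therefore adds little to their call. The 12 largest rises and the 12 largest falls named below were also chosen as genes whose arrays did not overlap. LPS array a held the most extreme of the 3 LPS values for 1669 of the 2768 genes that rose and for 2068 of the 3665 that fell. A call rests on both groups, and some calls came from albumin arrays that departed from the reference. Of the genes that rose, 269 had an LPS mean at or below 0, and of those that fell 278 had an LPS mean at or above 0. For 109 genes called higher and 85 called lower all 3 LPS arrays were listed at exactly 0.

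**Figure D1:**
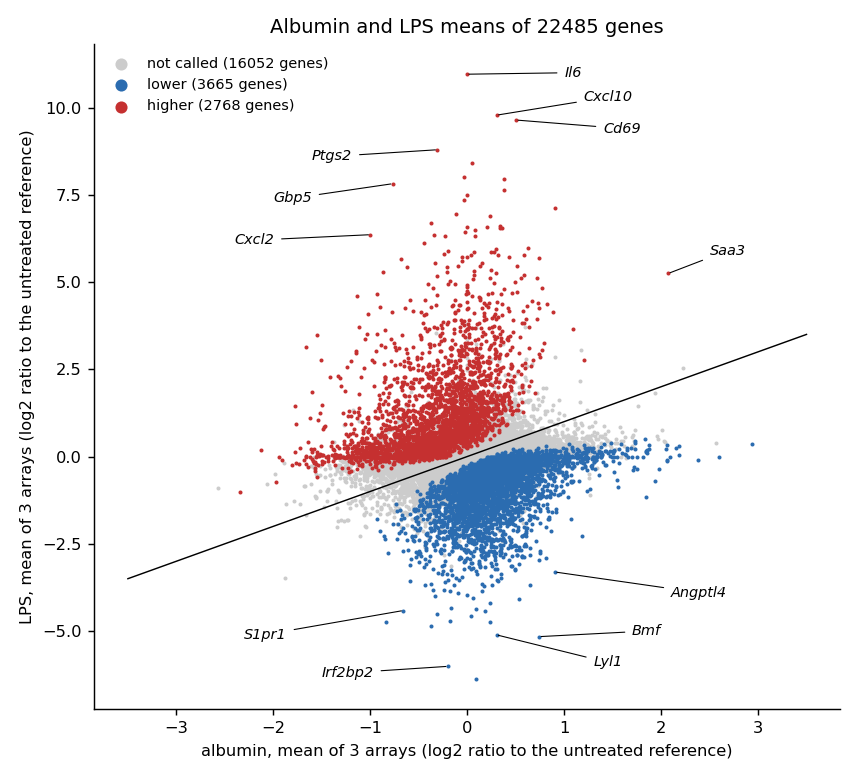
Mean log2 ratio to the untreated reference of 22485 genes on the 3 albumin arrays (horizontal) and the 3 LPS arrays (vertical), with genes called higher under LPS in red, called lower in blue and not called in grey. The line marks equal values, and Il6, Cxcl10 and Cd69 lie highest while the LPS means of Irf2bp2, Lyl1 and Bmf lie below -5.

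Among the 12 largest rises whose arrays did not overlap, several genes act outside the usual cytokine group. Adamts4, which encodes a protease that cleaves the proteoglycan aggrecan, stood at 0, -0.27 and 0.17 on albumin arrays a to c and at 8.13, 7.97 and 7.91 on LPS arrays a to c, a rise of 8.04 ± 0.58 (adjusted p = 2.53e-07). Edn1, which encodes the vasoconstrictor endothelin, stood at -0.16, -0.02 and 0.08 under albumin and 7.66, 7.17 and 7.19 under LPS and rose by 7.38 ± 0.55 (adjusted p = 3.68e-07). Gbp4, which encodes a guanylate-binding protein, stood at 0.10, 1.12 and -0.10 under albumin and 8.81, 7.19 and 7.90 under LPS and rose by 7.59 ± 1.14 (adjusted p = 0.000165). The 3 LPS arrays of Adamts4 and Edn1 lay within 1 unit of each other and far above the albumin arrays, whereas albumin array b of Gbp4 was high in its group and LPS array a highest of all 6. The other members of these 12 were Ptgs2, Cd69, Cxcl10, Gbp5, Il12b, Cxcl2, Il1b, Ifit1 and Ifnb1, with rises from 7.06 for Ifnb1 to 9.48 for Cxcl10.

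A further 17 genes rose from albumin arrays that were all listed at exactly 0, so no size is given for their rise. Among the 8 with the highest LPS values, Il6, whose product drives the acute-phase response, stood at 10.93, 11.59 and 10.35 on the LPS arrays (adjusted p = 2.1e-08). Il1a, which encodes the alarmin interleukin-1 alpha, stood at 6.11, 6.57 and 7.03 (adjusted p = 1.63e-06), and Serpinb2, which encodes an inhibitor of plasminogen activators, at 5.51, 8.45 and 8.52 (adjusted p = 0.000621). Fst, which encodes the activin-binding protein follistatin, stood at 4.98, 5.87 and 6.30 (adjusted p = 0.000288). Il6 was highest on array b and Il1a on array c, and Serpinb2 was about 3 units lower on array a than on the others. Mycl, a MYC family transcription factor gene, and Tnn, which encodes a tenascin, were also lowest on array a, at 3.65, 5.54 and 5.34 and 3.58, 5.37 and 5.28. The other members, Cxcl3 (adjusted p = 0.0305) and Steap4 (adjusted p = 0.0396), lost their calls without any 1 of albumin arrays a, b or c, of LPS array b or of LPS array c, with adjusted p from 0.07 to 0.134.

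Among the 12 largest falls several encode regulators of transcription or signalling. Irf2bp2, which encodes a corepressor that binds the interferon regulatory factor IRF2, stood at -0.20, -0.25 and -0.15 under albumin and -7.11, -5.03 and -5.89 under LPS and fell by 5.81 ± 0.60 (adjusted p = 6.46e-06). Klf10, which encodes a TGF-beta inducible transcription factor, stood at -0.18, -0.19 and -0.15 (albumin) and -4.85, -4.66 and -4.63 (LPS) and fell by 4.54 ± 0.35 (adjusted p = 4.22e-07). Cables1, which encodes a protein that binds cyclin-dependent kinases, stood at 0.23, 0.27 and 0.22 (albumin) and -5.11, -4.84 and -4.25 (LPS) and fell by 4.98 ± 0.44 (adjusted p = 1.57e-06). In each of these the albumin arrays lay within 0.5 of the reference and all LPS arrays lay at -4 or below. Dusp6, which encodes a phosphatase that switches off the MAP kinase ERK, stood at -0.35, -0.41 and -0.36 (albumin) and -5.67, -4.25 and -4.68 (LPS) and fell by 4.50 ± 0.69 (adjusted p = 0.000186). N4bp3 fell by 4.60 ± 0.28, Natd1 by 4.47 ± 0.36, the zinc finger gene Zfp760 by 4.44 ± 0.85 and the unnamed transcript AU022793 by 4.62 ± 0.32. The others of the 12 were Fam214a, Bmf, Lyl1 and Gpr183, with differences from -6.46 to -4.61.

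**Figure D2:**
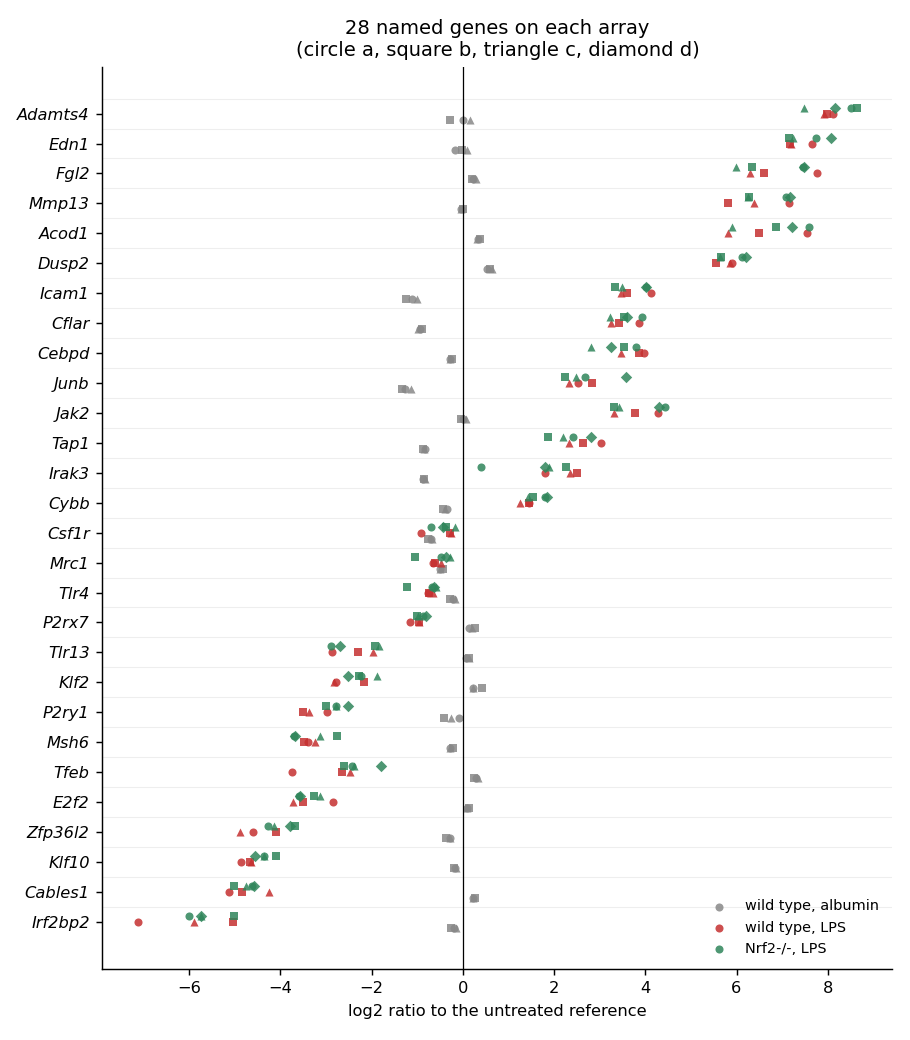
Log2 ratio to the untreated reference of 28 named genes on each albumin array (grey), each wild-type LPS array (red) and each Nrf2-/- LPS array (green), with 1 symbol shape per array letter. Wild-type LPS arrays of Adamts4 sit between 7.91 and 8.13 and those of Klf10 between -4.85 and -4.63, clear of the albumin arrays, while Csf1r and Mrc1 overlap between the groups.

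Promoter sequences of the measured genes were searched for short motifs that the transcription factors of this response are known to bind. The windows run from 250 bases before to 50 after each start site in RefSeq (build GRCm38.p6), and 20923 windows of 17162 genes were found. The letters searched on both strands were GGGANNTTC for the kappa B motif of NF-kB, GAAANNGAA for the interferon-stimulated response element (ISRE), TGANTCA for AP-1, TGACGTCA for the cyclic AMP response element (CRE) and TATAAA for the TATA box. The CRE and AP-1 letters do not contain each other, and the letters of ISRE matches can overlap one another. Kappa B letters were in 3.74% of all windows and in 13.5% of the 126 windows of genes that rose by 4 or more. ISRE letters were in 7.95% and 24.6%, AP-1 letters in 7.09% and 17.5%, and TATA letters in 12.1% and 26.2%. Genes that fell by 2 or more (544 windows) had kappa B letters in 3.86%, ISRE letters in 4.78% and TATA letters in 7.17%. The median number of CG dinucleotides per window was 13 over all genes, 7 for the genes that rose by 4 or more and 19 for those that fell by 2 or more. These extremes do not stand for all rises: the median was 18 for all genes that rose, 19 for all that fell and 10 for those not called. TATA letters were in 9.81% of the windows of all genes that rose, 7.65% of those that fell and 13.6% of those not called. By list, ISRE letters were in 81.8% of the 11 windows of guanylate-binding and immunity-related GTPase genes and in 50% of the 34 windows of antiviral effector genes. Kappa B letters were in 33.3% of the 18 chemokine windows. These shares describe letters in a fixed window, and neither binding nor enhancers outside the window were measured.

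Windows of 4 genes with matches are shown 5′ to 3′ on the strand of the gene, because their genes are among those with high LPS values and carry kappa B or ISRE letters, which are in capitals. A match on the other strand appears as its reverse complement. Nfkbia, which encodes the NF-kB inhibitor I-kappa-B-alpha, is at chr12:55492598-55492897 (minus strand), Cxcl10 at chr5:92348840-92349139 (minus strand), Il6 at chr5:30012864-30013163 (plus strand) and Ifit1, which encodes an antiviral protein that binds foreign RNA, at chr19:34640639-34640938 (plus strand), all on GRCm38.p6.
Nfkbia: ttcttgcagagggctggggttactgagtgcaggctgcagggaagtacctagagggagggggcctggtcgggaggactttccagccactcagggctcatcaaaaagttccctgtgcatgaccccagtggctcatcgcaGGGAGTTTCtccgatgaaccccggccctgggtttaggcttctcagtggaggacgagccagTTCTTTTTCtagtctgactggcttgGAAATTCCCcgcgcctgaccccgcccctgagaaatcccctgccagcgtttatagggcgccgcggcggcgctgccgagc
Cxcl10: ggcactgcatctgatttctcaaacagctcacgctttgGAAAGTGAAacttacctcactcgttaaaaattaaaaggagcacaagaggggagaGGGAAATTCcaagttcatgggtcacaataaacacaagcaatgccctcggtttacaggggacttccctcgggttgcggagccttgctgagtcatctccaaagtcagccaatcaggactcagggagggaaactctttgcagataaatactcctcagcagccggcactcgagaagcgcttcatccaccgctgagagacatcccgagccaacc
Il6: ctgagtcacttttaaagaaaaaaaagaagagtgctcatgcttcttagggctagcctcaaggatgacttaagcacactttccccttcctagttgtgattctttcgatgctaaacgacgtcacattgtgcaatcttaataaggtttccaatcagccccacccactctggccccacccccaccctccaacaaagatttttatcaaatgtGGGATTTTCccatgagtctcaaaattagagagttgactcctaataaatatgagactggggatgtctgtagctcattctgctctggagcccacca
Ifit1: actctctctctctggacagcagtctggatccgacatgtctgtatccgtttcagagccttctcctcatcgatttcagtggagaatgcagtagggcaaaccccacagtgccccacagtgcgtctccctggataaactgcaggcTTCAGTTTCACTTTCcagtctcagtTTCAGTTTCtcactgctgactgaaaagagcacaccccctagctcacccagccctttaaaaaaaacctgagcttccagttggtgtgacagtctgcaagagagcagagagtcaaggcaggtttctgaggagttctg
Counted from the start site, Nfkbia has kappa B letters at -113 and -28 and ISRE letters at -53. Cxcl10 has kappa B letters at -159 and ISRE letters at -213, Il6 has kappa B letters at -44, and Ifit1 has 3 ISRE matches at -109, -103 and -84, of which the pair at -109 and -103 overlaps. In the window of Il1b, at chr2:129371090-129371389, TATA letters were found at -31 and neither kappa B nor ISRE letters, and the window of the fractalkine receptor gene Cx3cr1, at chr9:120068247-120068546, held none of the 5 motifs.

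**Figure D3:**
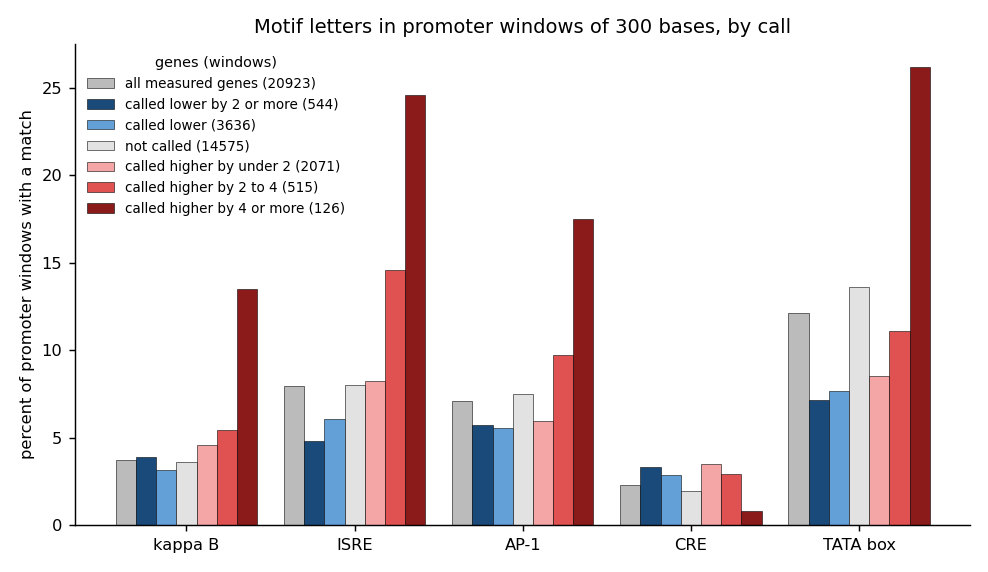
Percent of promoter windows of 300 bases with a match to each of 5 motifs, for all measured genes and by call and size of the difference, with the number of windows in the key. Bars for genes that rose by 4 or more (126 windows) are the tallest of each motif except CRE, where that bar is the lowest, at 0.794%.

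The counts in this and the following lists are to be read against all genes, of which 12.3% rose and 16.3% fell. The receptor complex and its adaptors moved unevenly. Of 16 measured members of the TLR4 receptor and adaptor list 9 rose and 0 fell, with a median difference of 0.74. Cd14, the co-receptor, stood at -0.41, -0.40 and -0.41 under albumin and 2.35, 1.75 and 2.18 under LPS and rose by 2.50 ± 0.31 (adjusted p = 3.09e-05). Irak2, which encodes a kinase downstream of MyD88, stood at -0.62, -0.68 and -0.70 (albumin) and 2.08, 2.20 and 1.97 (LPS) and rose by 2.75 ± 0.24 (adjusted p = 1.57e-06), although its 2 probes gave 1.48 and 4.01. Irak3, which encodes an inactive kinase that restrains the pathway, stood at -0.88, -0.85 and -0.83 (albumin) and 1.80, 2.49 and 2.34 (LPS) and rose by 3.06 ± 0.52 (adjusted p = 0.000457). Myd88 rose by 2.19 ± 0.24 and Tab2, which encodes an adaptor of the kinase TAK1, by 1.70 ± 0.17, and in all 5 genes the LPS arrays lay above the albumin arrays. Tlr4 itself stood at -0.21, -0.28 and -0.17 (albumin) and -0.77, -0.75 and -0.65 (LPS) (-0.50 ± 0.21, adjusted p = 0.0915). Its LPS arrays lay below its albumin arrays, but the difference did not pass the threshold. Of 12 other Toll-like receptor genes 4 (33.3%) rose and 1 (8.33%) fell. Tlr3, which encodes the sensor of double-stranded RNA, stood at -0.46, -0.47 and -0.39 (albumin) and 5.19, 3.08 and 2.82 (LPS) and rose by 4.13 ± 0.78 (adjusted p = 0.00107), highest on LPS array a. Tlr1, Tlr6 and Tlr2, whose products sense bacterial lipopeptides as dimers, rose by 2.76 ± 0.42, 2.57 ± 0.36 and 2.11 ± 0.27. Tlr13, which encodes the sensor of bacterial ribosomal RNA in endosomes, stood at 0.07, 0.13 and 0.13 (albumin) and -2.87, -2.30 and -1.97 (LPS) and fell by 2.49 ± 0.39 (adjusted p = 0.00024).

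Among transcription factors of the immediate response, 11 of 25 measured genes rose and 1 fell, with a median difference of 1.06. Junb, which encodes a subunit of AP-1, stood at -1.26, -1.33 and -1.14 under albumin and 2.53, 2.82 and 2.32 under LPS and rose by 3.80 ± 0.38 (adjusted p = 4.6e-06). Csrnp1, whose product is a nuclear protein first described as induced by axin, rose by 3.31 ± 0.39, and the small Maf genes Mafk and Maff rose by 2.67 ± 0.35 and 2.60 ± 0.43. Klf2, which encodes a transcription factor that restrains inflammatory genes, stood at 0.21, 0.42 and 0.21 (albumin) and -2.78, -2.17 and -2.83 (LPS) and fell by 2.88 ± 0.30 (adjusted p = 6.45e-06). Egr1, an early growth response gene, stood at 0.01, 0.15 and 0.16 (albumin) and 1.94, 1.76 and 0.47 (LPS) (1.29 ± 0.58, adjusted p = 0.12), with LPS array c near the albumin arrays. Of the 15 NF-kB subunits and inhibitors 14 rose and 0 fell, with a median of 2.36. Rel, which encodes the subunit c-Rel, stood at -1.28, -0.64 and -1.24 (albumin) and 2.24, 3.47 and 4.40 (LPS) and rose by 4.42 ± 0.88 (adjusted p = 0.00152), and Nfkbia stood at 0.18, 0.15 and 0.21 (albumin) and 4.73, 3.77 and 3.58 (LPS) and rose by 3.85 ± 0.40 (adjusted p = 6.38e-06). Tank, whose product binds TRAF proteins and the kinase TBK1, rose by 2.92 ± 0.37 and Bcl3, an atypical I-kappa-B gene, by 2.54 ± 0.56. Nfkbid alone in this list was not called (0.50 ± 0.34, adjusted p = 0.315). Junb, Rel and Nfkbia had every LPS array above every albumin array, and in Klf2 every LPS array lay below every albumin array.

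Of 29 feedback inhibitors 17 rose and 4 fell, with a median of 2.32. Dusp2, which encodes a nuclear MAP kinase phosphatase, stood at 0.54, 0.59 and 0.63 under albumin and 5.91, 5.56 and 5.85 under LPS and rose by 5.19 ± 0.25 (adjusted p = 8.14e-09). Il1rn, which encodes the interleukin-1 receptor antagonist, stood at -0.83, -0.62 and -0.88 (albumin) and 4.99, 4.03 and 3.37 (LPS) and rose by 4.90 ± 1.07 (adjusted p = 0.00304). Cish, which encodes a SOCS family inhibitor of cytokine signals, rose by 4.30 ± 0.35 and Traf1 by 4.44 ± 0.52. Dusp6 fell, as given above, while Dusp2 rose. Zfp36l2, which encodes a protein that binds AU-rich elements and promotes decay of mRNA, stood at -0.28, -0.38 and -0.27 (albumin) and -4.60, -4.09 and -4.87 (LPS) and fell by 4.21 ± 0.39 (adjusted p = 2.17e-06). Its relative Zfp36l1 stood at -0.10, -0.13 and -0.08 (albumin) and -3.96, -1.96 and -1.88 (LPS) and fell by 2.49 ± 0.61 (adjusted p = 0.00625), with LPS array a about 2 units below the others. The fourth gene that fell, Rgs2 (-1.54 ± 0.52, adjusted p = 0.0368), lost its call without any 1 of the 6 arrays, with adjusted p from 0.062 to 0.108. Dusp2 and Il1rn had every LPS array above every albumin array, and in Zfp36l2 and Zfp36l1 every LPS array lay below every albumin array.

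Of 35 cytokines and growth factors 17 rose and 1 fell, with a median of 2.84, and 6 were listed at 0 on all albumin arrays. Il10, which encodes the main anti-inflammatory cytokine of macrophages, stood at -0.06, 0.15 and 0.08 under albumin and 5.62, 5.03 and 4.59 under LPS, and its 10 probes gave differences of 4.58 to 5.39. Ifnb1 stood at -1.08, 1.46 and -0.73 (albumin) and 5.38, 7.87 and 7.56 (LPS), with albumin arrays spread over more than 2 units and all of them below the LPS arrays. Il16, which encodes a chemoattractant for CD4+ cells, stood at 0.17, 0.10 and 0.14 (albumin) and -4.06, -2.64 and -2.74 (LPS) and fell by 3.28 ± 0.55 (adjusted p = 0.000423). The colony-stimulating factor genes split the LPS arrays. Csf2, which encodes GM-CSF, stood at 0.28, 5.27 and 5.53 on LPS arrays a to c and Csf3, which encodes G-CSF, at 0, 4.70 and 4.97, against -0.05, 0.11 and 0.22 and 0.27, 0 and 0 under albumin. Array a lay near the albumin arrays in both and arrays b and c were high, and neither difference passed the threshold (3.60 ± 1.97, adjusted p = 0.205; 3.14 ± 1.83, adjusted p = 0.235). Il1f6, an interleukin-1 family gene, showed the same split with 1.01, 5.29 and 5.09 (adjusted p = 0.0754) and was called without LPS array a (adjusted p = 0.0236). Il10 and Ifnb1 had every LPS array above every albumin array, and in Il16 every LPS array lay below every albumin array.

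Chemokine genes rose in 16 of 26 cases and fell in 0, with a median of 3.72. Cxcl2, which encodes a neutrophil attractant, stood at -1.23, -0.92 and -0.85 under albumin and 6.26, 6.40 and 6.41 under LPS, and Cxcl9, which encodes an interferon-gamma induced attractant of T cells, at -0.89, 1.23 and 0.40 (albumin) and 5.93, 5.84 and 5.80 (LPS) (rise 5.61 ± 0.61, adjusted p = 1.01e-05). LPS arrays of both lay within 0.2 of each other, while the albumin arrays of Cxcl9 spread over 2 units. Cxcl10 was higher on LPS array a (11.69) than on arrays b and c (8.87 and 8.79), and Cxcl1 was lower on array a (5.91 against 7.81 and 7.62), so that the order of the LPS arrays was not shared. Cxcl5 stood at 0, 2.86 and 4.62 under LPS and at 0 on all albumin arrays (adjusted p = 0.0771) and was called without LPS array a (adjusted p = 0.00594). Cxcl14, a chemokine gene expressed in epithelia, stood at 0.32, 0.50 and 0.32 (albumin) and -0.75, -0.38 and -0.18 (LPS) (-0.81 ± 0.45, adjusted p = 0.211). Of 17 receptors for attractants 4 rose and 4 fell (23.5% each, against 12.3% and 16.3% of all genes). Fpr2, which encodes a formyl peptide receptor, stood at -0.31, -0.04 and -0.23 (albumin) and 6.81, 5.05 and 2.94 (LPS) and rose by 5.12 ± 1.14 (adjusted p = 0.00342). Ccrl2, which encodes a receptor that binds chemerin, rose by 3.80 ± 0.18 and the platelet-activating factor receptor gene Ptafr by 1.39 ± 0.32. Gpr84, which encodes a receptor of medium-chain fatty acids, stood at 6.65, 2.93 and 2.84 under LPS, and its rise of 3.26 ± 1.01 (adjusted p = 0.0248) was 2.00 (adjusted p = 0.121) without LPS array a and lost its call without any 1 albumin array too. Cxcr4 and Cxcr3 fell by 2.07 ± 0.38 and 2.56 ± 0.65, and Cxcr4 stood at -0.69, -0.62 and -0.53 (albumin) and -3.23, -3.01 and -1.82 (LPS). The fall of the leukotriene receptor gene Ltb4r1 (-1.43 ± 0.48, adjusted p = 0.0388) lost its call without any 1 of the 6 arrays. Neither Ccr2 (-0.67 ± 0.84, adjusted p = 0.632) nor Cx3cr1 (-1.0 ± 0.49, adjusted p = 0.151), receptors of monocyte traffic, was called, and LPS array c of Ccr2 lay above its albumin arrays.

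Most genes of the lists known to be induced by interferon rose. Of 35 antiviral effectors 31 rose and 0 fell, with a median of 2.81. In all 35 the LPS arrays lay above the albumin arrays, against 19.9% of all genes. Rsad2, which encodes viperin, stood at -0.26, -0.15 and -0.27 under albumin and 6.76, 6.17 and 6.06 under LPS and rose by 6.56 ± 0.99 (adjusted p = 0.000166). Cmpk2, its genomic neighbour that encodes a mitochondrial nucleotide kinase, stood at -0.21, -0.24 and -0.14 (albumin) and 6.33, 5.74 and 5.59 (LPS) and rose by 6.08 ± 1.02 (adjusted p = 0.000404), and Mx2, which encodes a dynamin-like antiviral GTPase, rose by 5.27 ± 0.77. In Rsad2 and Cmpk2 array a was the highest of the LPS arrays. Bst2, which encodes tetherin, was among the 4 not called (0.66 ± 0.31, adjusted p = 0.13). Of 18 guanylate-binding and immunity-related GTPase genes 17 rose and 0 fell, with the highest list median of 4.28. Iigp1 rose by 6.56 ± 1.02, Gbp3 by 6.40 ± 0.98 and Tgtp1 by 5.19 ± 0.86, while Gbp8 stood at -0.51, 0.09 and -0.31 (albumin) and 0.86, -0.03 and -0.39 (LPS) (0.39 ± 0.73, adjusted p = 0.777). Several of these genes have near-identical copies, and the probe positions are not given, so single members are uncertain. Upstream, 14 of 26 interferon, IRF and JAK-STAT genes rose and 1 fell, with 9 higher without LPS array a. Irf7, the master factor of late interferon genes, stood at -0.85, -1.06 and -0.92 (albumin) and 3.89, 2.82 and 2.40 (LPS) and rose by 3.98 ± 0.77 (adjusted p = 0.00129). Irf1 stood at -0.27, -0.68 and -0.48 (albumin) and 2.93, 3.28 and 4.04 (LPS) and rose by 3.89 ± 0.56 (adjusted p = 0.000116), Jak2, which encodes a kinase of cytokine receptors, rose by 3.78 ± 0.38 and Batf2 by 3.65 ± 0.70. Irf3, whose product is activated by phosphorylation after TLR4 ligation, stood at 0.27, 0.18 and 0.23 (albumin) and -0.63, -0.80 and -0.55 (LPS) and fell by 0.89 ± 0.12 (adjusted p = 5.2e-05). Rsad2, Cmpk2, Irf7 and Irf1 had every LPS array above every albumin array, and in Irf3 every LPS array lay below every albumin array.

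**Figure D4:**
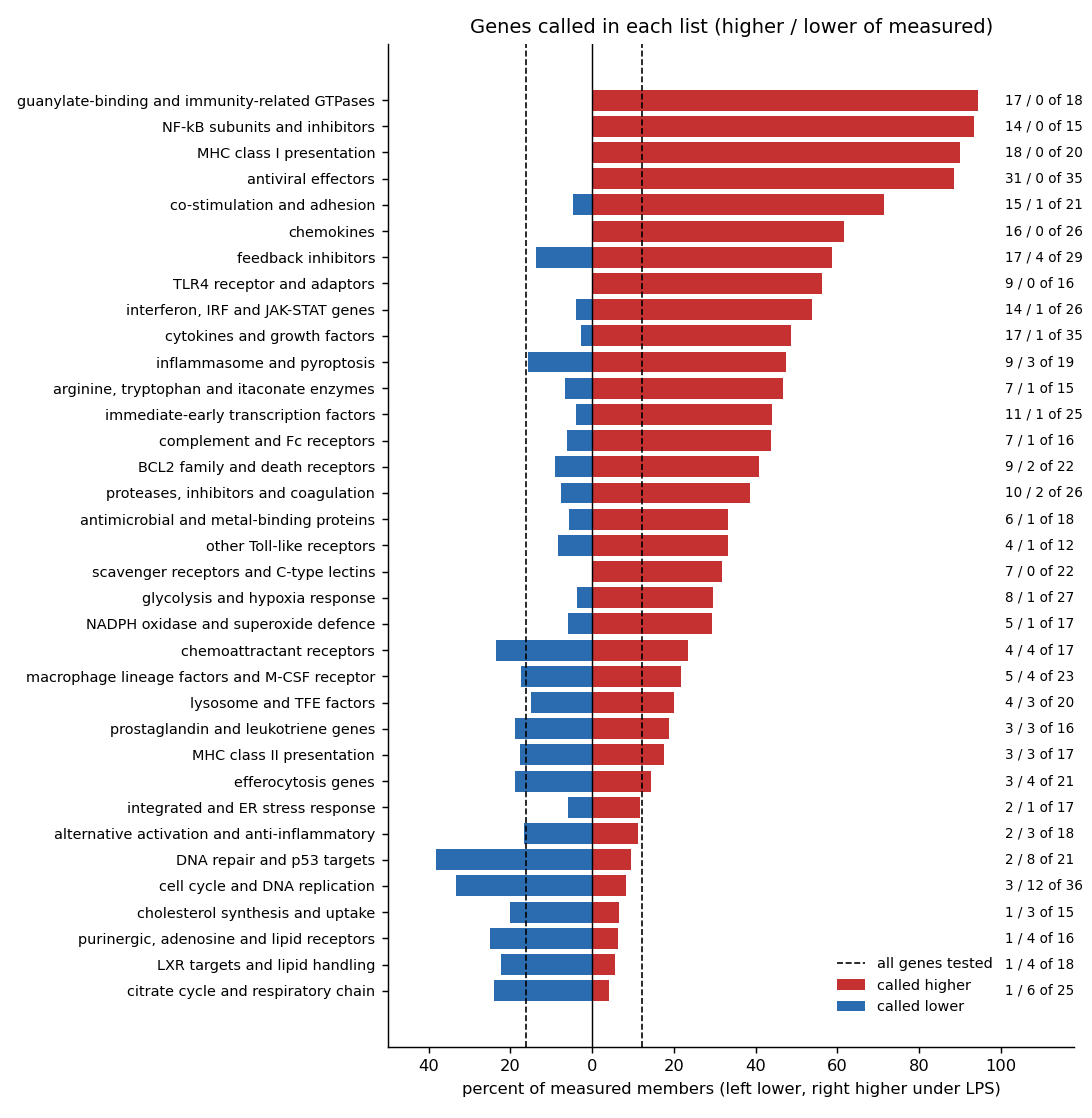
Percent of measured members called higher (red, right) and lower (blue, left) under LPS in 35 gene lists, with counts at the right as higher / lower of measured and dashed lines at the shares over all genes tested (12.3% and 16.3%). Guanylate-binding and immunity-related GTPases (17 of 18) and NF-kB subunits and inhibitors (14 of 15) have the longest red bars, and DNA repair and p53 targets (8 of 21) the longest blue bar.

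Antigen presentation genes were counted by class. Of 20 MHC class I presentation genes 18 rose and 0 fell, with a median of 1.53. Tap1, which encodes a subunit of the peptide transporter, stood at -0.83, -0.88 and -0.86 under albumin and 3.03, 2.63 and 2.33 under LPS and rose by 3.52 ± 0.51 (adjusted p = 0.000123), and its 10 probes gave 3.46 to 3.56. Psme2, which encodes a subunit of the proteasome activator PA28, rose by 2.35 ± 0.28 and the non-classical class I gene H2-T23 by 1.82 ± 0.24. Calr, a chaperone gene, was not called (0.26 ± 0.17, adjusted p = 0.294). Of 17 MHC class II presentation genes 3 rose and 3 fell (17.6% each, against 12.3% and 16.3% of all genes). Without albumin array b or without LPS array c 1 rose, and without albumin array a 5 did. Ctss, which encodes the protease that trims the invariant chain, stood at -0.37, -0.28 and -0.34 (albumin) and 0.35, 0.27 and 0.35 (LPS) and rose by 0.66 ± 0.16 (adjusted p = 0.00554). H2-DMb1, which encodes a chain of the peptide-loading molecule H2-M, stood at 0.41, 0.44 and 0.48 (albumin) and -0.67, -0.23 and -0.24 (LPS) and fell by 0.82 ± 0.18 (adjusted p = 0.00317), and Rfxank, a subunit gene of the factor RFX, fell by 0.78 ± 0.17. H2-Aa was spread over 2 units on the LPS arrays (0.08, 0.77 and 2.14), and its rise of 1.43 ± 0.41 lost its call without LPS array c (0.86, adjusted p = 0.0728) and without albumin array b (adjusted p = 0.0644). Co-stimulatory and adhesion genes rose in 15 of 21 cases and fell in 1, with a median of 2.90. Icam1, which encodes an adhesion molecule for leukocyte integrins, stood at -1.11, -1.26 and -0.998 (albumin) and 4.11, 3.59 and 3.47 (LPS) and rose by 4.85 ± 0.25 (adjusted p = 2.1e-08). Slamf7 rose by 4.26 ± 0.44. Havcr2, which encodes the inhibitory receptor TIM-3, stood at -0.15, -0.07 and -0.08 (albumin) and -2.66, -1.56 and -1.39 (LPS) and fell by 1.77 ± 0.36 (adjusted p = 0.00176). Cd86, a ligand of CD28, was not called (1.64 ± 0.61, adjusted p = 0.0581) although its LPS arrays (2.69, 1.57 and 1.16) lay above its albumin arrays (0.18, 0.14 and 0.18), and it was called without LPS array c (1.97, adjusted p = 0.05). Tap1, Ctss and Icam1 had every LPS array above every albumin array, and in H2-DMb1 and Havcr2 every LPS array lay below every albumin array.

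Inflammasome genes rose in 9 of 19 cases and fell in 3. Nlrp3, which encodes the sensor of the canonical inflammasome, stood at -0.35, -0.24 and -0.32 under albumin and 2.67, 1.95 and 2.07 under LPS and rose by 2.54 ± 0.38 (adjusted p = 0.000166). Casp4, which encodes caspase-11, the receptor of cytosolic LPS in mice, rose by 3.25 ± 0.76, Casp1 by 2.67 ± 0.46 and Mefv, which encodes pyrin, by 3.93 ± 0.43. The ATP-gated channel gene P2rx7, whose product triggers NLRP3, stood at 0.13, 0.26 and 0.21 (albumin) and -1.16, -0.96 and -0.96 (LPS) and fell by 1.23 ± 0.15 (adjusted p = 3.03e-05), and the pannexin gene Panx1 fell by 1.32 ± 0.33 (adjusted p = 0.00717). Txnip, whose product binds thioredoxin, fell by 0.85 ± 0.21, with probes at -1.33 and -0.36, and by 0.54 without LPS array a. Its call was lost with the 6 arrays fitted alone (-0.85, adjusted p = 0.0906) and after quantile normalization (-0.45, adjusted p = 0.179). Pycard, which encodes the adaptor ASC, overlapped between the groups (-0.25 ± 0.26, adjusted p = 0.55). In prostaglandin and leukotriene synthesis 3 of 16 genes rose and 3 fell (18.8% each, near the shares of all genes). Ptges, which encodes the inducible prostaglandin E synthase, rose by 1.80 ± 0.23 (adjusted p = 4.49e-05) with probes at 0.42 and 3.17. Ltc4s, which encodes leukotriene C4 synthase, stood at 0.62, 0.67 and 0.64 (albumin) and -0.82, -0.40 and -0.27 (LPS) and fell by 1.14 ± 0.27 (adjusted p = 0.00557), and Alox5ap, the activating protein gene of 5-lipoxygenase, fell by 0.57 ± 0.13. The fall of Lta4h (adjusted p = 0.0479) lost its call without any 1 albumin array and without LPS array a or b, with adjusted p from 0.0851 to 0.18. The rise of Pla2g4a (1.71 ± 0.52, adjusted p = 0.0229) was 0.93 (adjusted p = 0.0857) without LPS array a and also lost its call without any 1 albumin array. Nlrp3 had every LPS array above every albumin array, and in P2rx7 and Ltc4s every LPS array lay below every albumin array.

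Among enzymes of arginine, tryptophan and itaconate metabolism 7 of 15 rose and 1 fell. Acod1, which encodes the enzyme that makes itaconate, stood at 0.32, 0.39 and 0.31 under albumin and 7.56, 6.48 and 5.82 under LPS and rose by 6.28 ± 0.58 (adjusted p = 2.49e-06). Slc7a2, which encodes an arginine transporter, stood at -1.07, -1.20 and -0.10 (albumin) and 2.70, 2.58 and 2.93 (LPS) and rose by 3.53 ± 0.65 (adjusted p = 0.00087). In tetrahydrobiopterin synthesis, which supplies the cofactor of nitric oxide synthase, Gch1 rose by 2.55 ± 0.41 and Spr, which acts last in the pathway, stood at 0.64, 0.67 and 0.71 (albumin) and -1.11, -0.65 and -0.80 (LPS) and fell by 1.52 ± 0.21 (adjusted p = 6.82e-05). Arg1 and Arg2, the arginase genes, were not called (0.49 ± 0.32 and 1.68 ± 0.93), and LPS array a of Arg2 lay within the range of its albumin arrays while b and c lay above. Glycolysis and hypoxia genes rose in 8 of 27 cases and fell in 1. Pfkfb3, which encodes an activator of phosphofructokinase, stood at 0.42, -0.08 and -0.07 (albumin) and 3.56, 3.15 and 2.64 (LPS) and rose by 3.03 ± 0.69 (adjusted p = 0.00412). The hexose transporter gene Slc2a6 rose by 3.08 ± 0.40, Hif1a, which encodes the hypoxia-inducible factor, by 1.36 ± 0.29 and Hk1 by 1.21 ± 0.21. Hk2 rose by 1.33 ± 0.42 (adjusted p = 0.0283) with LPS values of 2.70, 1.12 and 0.77, and the difference was 0.74 (adjusted p = 0.127) without LPS array a and lost its call without any 1 albumin array. Aldoc, the gene that fell (-0.67 ± 0.22), lost its call without any 1 of the 6 arrays. Gapdh, often used as a reference gene, rose by 0.37 ± 0.10 (adjusted p = 0.0129), with 7 probes at -0.34 to 0.79. In the citrate cycle and respiratory chain 1 of 25 (4.0%) rose and 6 (24.0%) fell, all 6 by under 1. The shares of all genes were 12.3% and 16.3%. Ndufs3 and Ndufv1, subunit genes of complex I, fell by 0.58 ± 0.14 and 0.41 ± 0.08, and Sdhb, a subunit gene of complex II, by 0.42 ± 0.10. With 1 probe per gene Sdhb was not called (-0.225, adjusted p = 0.195). Without LPS array c 2 members rose. Acod1, Slc7a2 and Pfkfb3 had every LPS array above every albumin array, and in Spr every LPS array lay below every albumin array.

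In cholesterol synthesis and uptake 1 of 15 genes rose and 3 fell. Ch25h, which encodes the enzyme that makes the antiviral oxysterol 25-hydroxycholesterol, stood at 0.37, 0.36 and 0.37 under albumin and 5.20, 3.82 and 4.10 under LPS and rose by 4.01 ± 0.66 (adjusted p = 0.000333). Mvd and Mvk, of the mevalonate pathway, fell by 1.46 ± 0.29 and 1.09 ± 0.24, and Mvd stood at 0.10, 0.00 and 0.12 (albumin) and -1.46, -1.20 and -1.51 (LPS). The fall of Fdft1 (-0.77 ± 0.25, adjusted p = 0.0313) came from probes of opposite sign (-2.36 and 0.82) and lost its call without albumin array a or b or LPS array b or c, with adjusted p from 0.0858 to 0.0919. Among LXR targets and lipid handling genes 1 of 18 (5.56%) rose and 4 (22.2%) fell, with 2 lower without LPS array a. Angptl4, which encodes an inhibitor of lipoprotein lipase, stood at 0.90, 0.80 and 1.03 (albumin) and -3.49, -3.31 and -3.13 (LPS) and fell by 4.22 ± 0.76 (adjusted p = 0.000743). Lpl, lipoprotein lipase itself, stood at -0.90, -0.96 and -0.91 (albumin) and 0.04, -0.36 and -0.19 (LPS) and rose by 0.76 ± 0.18 (adjusted p = 0.00626), and Srebf1, a lipogenic transcription factor gene, fell by 0.98 ± 0.18. The lipid-sensing nuclear receptor gene Pparg fell by 1.31 ± 0.37 and the desaturase gene Scd2 by 2.72 ± 0.77, and without LPS array a these differences were -0.95 (adjusted p = 0.0839) and -2.46 (adjusted p = 0.0575). Ch25h and Lpl had every LPS array above every albumin array, and in Mvd and Angptl4 every LPS array lay below every albumin array.

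Of 22 scavenger receptors and C-type lectins 7 rose and 0 fell. Clec4e, which encodes Mincle, a receptor of mycobacterial glycolipids, stood at -0.03, -0.11 and -0.13 under albumin and 5.06, 3.97 and 3.56 under LPS and rose by 4.29 ± 0.47 (adjusted p = 1.02e-05). Msr1, the class A scavenger receptor gene, stood at -0.53, -0.65 and -0.52 (albumin) and 3.08, 1.51 and 1.37 (LPS) and rose by 2.55 ± 0.46 (adjusted p = 0.000692). Marco stood at 4.70, 2.89 and 1.50 on the LPS arrays and rose by 2.94 ± 0.80 (adjusted p = 0.0126), and without LPS array a the difference was 2.10 (adjusted p = 0.0673). Mrc1, which encodes the mannose receptor, stood at -0.50, -0.43 and -0.50 (albumin) and -0.65, -0.61 and -0.48 (LPS) and overlapped between the groups (-0.10 ± 0.31, adjusted p = 0.897). Of 21 genes for the clearance of dead cells 3 (14.3%) rose and 4 (19.0%) fell, shares near those of all genes (12.3% and 16.3%). Itgav, which encodes an integrin chain, rose by 2.94 ± 0.28, the transglutaminase gene Tgm2 by 2.29 ± 0.19 and the receptor kinase gene Axl by 2.21 ± 0.40. Trem2, which encodes a lipid receptor, stood at 0.43, 0.42 and 0.35 (albumin) and -0.69, -0.57 and -0.39 (LPS) and fell by 0.95 ± 0.22 (adjusted p = 0.00487), Mfge8, which encodes a bridge to phosphatidylserine, fell by 0.81 ± 0.17 and Lrp1 by 0.69 ± 0.16. The fall of Itgb3 (-0.85 ± 0.28, adjusted p = 0.0323) lost its call without albumin array a or c or LPS array a or c, with adjusted p from 0.0538 to 0.125. Complement and Fc receptor genes rose in 7 of 16 cases and fell in 1. Cfb, which encodes factor B of the alternative pathway, stood at 0.28, 0.15 and 0.17 (albumin) and 4.85, 4.28 and 3.89 (LPS) and rose by 4.15 ± 0.62 (adjusted p = 0.000161). Fcgr2b, the inhibitory Fc receptor gene, rose by 2.69 ± 0.31 and the activating receptor gene Fcgr4 by 2.05 ± 0.43. C5ar2, which encodes a second receptor of the anaphylatoxin C5a, stood at 0.33, 0.34 and 0.33 (albumin) and -1.59, -2.66 and -1.74 (LPS) and fell by 2.33 ± 0.40 (adjusted p = 0.000479). Clec4e, Msr1 and Cfb had every LPS array above every albumin array, and in Trem2 and C5ar2 every LPS array lay below every albumin array.

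Among proteases, their inhibitors and coagulation genes 10 of 26 rose and 2 fell. Fgl2, which encodes a membrane prothrombinase, stood at 0.22, 0.20 and 0.29 under albumin and 7.76, 6.60 and 6.30 under LPS and rose by 6.65 ± 0.54 (adjusted p = 7.1e-07). Mmp13, a collagenase gene, stood at -0.04, 0.00 and -0.03 (albumin) and 7.15, 5.81 and 6.39 (LPS) and rose by 6.47 ± 0.64 (adjusted p = 4.55e-06). Thbd, which encodes the anticoagulant thrombomodulin, stood at -0.15, -0.02 and -0.12 (albumin) and -2.51, -2.90 and -2.22 (LPS) and fell by 2.45 ± 0.63 (adjusted p = 0.00905). The fall of the urokinase gene Plau (-2.52 ± 0.77, adjusted p = 0.0235) lost its call without any 1 albumin array and was -1.98 (adjusted p = 0.107) without LPS array a. Of 18 antimicrobial and metal-binding genes 6 rose and 1 fell, with 3 higher without LPS array b. Saa3, an acute-phase serum amyloid gene, stood at 1.88, 2.58 and 1.77 (albumin) and 5.64, 5.61 and 4.50 (LPS), so that it was above the reference on the albumin arrays too, and rose by 3.17 ± 0.41 (adjusted p = 4.52e-05). After quantile normalization of the arrays the same difference was -1.18. Slc39a14, which encodes an importer of zinc and iron, stood at -0.29, -0.28 and -0.33 (albumin) and 3.60, 2.18 and 2.38 (LPS) and rose by 3.02 ± 0.38 (adjusted p = 3.68e-05). Slc40a1, which encodes the iron exporter ferroportin, stood at -0.21, -0.24 and -0.17 (albumin) and -5.01, -2.55 and -2.57 (LPS) and fell by 3.17 ± 0.84 (adjusted p = 0.0101), and without LPS array a the difference was -2.35 (adjusted p = 0.0553). In the NADPH oxidase and superoxide defence list 5 of 17 rose and 1, the glutathione peroxidase gene Gpx1, fell by 0.40 ± 0.10. After quantile normalization Gpx1 was not called (-0.38, adjusted p = 0.0979). Sod2, which encodes the mitochondrial superoxide dismutase, rose by 3.46 ± 0.45, and Cybb and Ncf1, subunit genes of the phagocyte oxidase, rose by 1.78 ± 0.15 and 1.19 ± 0.24. The LPS arrays of Cybb (1.46, 1.44 and 1.25) lay together above its albumin arrays (-0.36, -0.44 and -0.40). Slc7a11, the cystine transporter gene, was spread from 0 to 4.59 on the LPS arrays, and its call (adjusted p = 0.049) was lost without any 1 albumin array and without LPS array b or c. Fgl2, Mmp13, Saa3, Slc39a14 and Cybb had every LPS array above every albumin array, and in Thbd and Slc40a1 every LPS array lay below every albumin array.

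Of 23 lineage factors of macrophages 5 (21.7%) rose and 4 (17.4%) fell, against 12.3% and 16.3% of all genes. Without LPS array a 2 were lower. Spi1, which encodes PU.1, the factor that specifies the myeloid lineage, stood at -0.49, -0.58 and -0.49 under albumin and 1.26, 0.82 and 0.98 under LPS and rose by 1.54 ± 0.24 (adjusted p = 0.000187). Cebpd, a C/EBP gene of the acute-phase response, stood at -0.29, -0.23 and -0.28 (albumin) and 3.98, 3.87 and 3.47 (LPS) and rose by 4.04 ± 0.22 (adjusted p = 3.16e-08). Tfec rose by 2.09 ± 0.34 and Adgre1, which encodes the macrophage marker F4/80, by 0.97 ± 0.12. Cebpa, which encodes the C/EBP of resting myeloid cells, was below the reference in both groups, at -1.89, -1.92 and -1.82 (albumin) and -4.28, -3.32 and -2.87 (LPS) (-1.61 ± 0.61, adjusted p = 0.0634), and did not pass the threshold although the arrays did not overlap. Cebpe fell by 0.93 ± 0.21. The rise of Cebpb (2.17 ± 0.64, adjusted p = 0.0199) lost its call without LPS array a (1.69, adjusted p = 0.0945) and without albumin array a or c. The falls of Maf (-0.73 ± 0.21) and Mef2c (-1.73 ± 0.51) were lost without LPS array a (-0.65 and -1.11, adjusted p = 0.063 and 0.0945), and that of Mef2c also without albumin array b (adjusted p = 0.063). Of 18 genes of alternative activation 2 (11.1%) rose and 3 (16.7%) fell, shares near those of all genes, and 1 fell without any 1 albumin array or LPS array b and 0 without LPS array a. Il13ra1, a receptor chain for interleukin-13, stood at -0.65, -0.45 and -0.74 (albumin) and 3.14, 3.00 and 2.30 (LPS) and rose by 3.43 ± 0.61 (adjusted p = 0.000621), and Il10ra, the ligand-binding chain of the interleukin-10 receptor, rose by 1.70 ± 0.38. The falls of Tgfbr1, Tgfbr2 and Tgfbi, of the TGF-beta pathway, had adjusted p of 0.0435, 0.0158 and 0.028. Tgfbr1 lost its call without any 1 of the 6 arrays, Tgfbi without each except LPS array c, and Tgfbr2 without LPS array a. Receptors for nucleotides, adenosine and lipids fell in 4 of 16 cases and rose in 1. P2ry1, which encodes an ADP receptor, stood at -0.09, -0.41 and -0.25 (albumin) and -2.98, -3.50 and -3.37 (LPS) and fell by 3.03 ± 0.31 (adjusted p = 5.86e-06). S1pr1, which encodes a sphingosine 1-phosphate receptor, stood at -0.73, -0.63 and -0.62 (albumin) and -5.35, -4.16 and -3.73 (LPS) and fell by 3.75 ± 0.72 (adjusted p = 0.00112), the lysophospholipid receptor gene Gpr34 fell by 2.73 ± 0.56 and P2ry6 by 1.71 ± 0.30. The rise of Adora3 (adjusted p = 0.0358) was lost without albumin array a or b or LPS array a or b. Spi1, Cebpd and Il13ra1 had every LPS array above every albumin array, and in P2ry1 and S1pr1 every LPS array lay below every albumin array.

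In the BCL2 family and death receptor list 9 of 22 genes rose and 2 fell, with genes that protect from and that promote cell death among those that rose. Cflar, which encodes the caspase-8 inhibitor c-FLIP, stood at -0.94, -0.89 and -0.98 under albumin and 3.85, 3.42 and 3.25 under LPS and rose by 4.44 ± 0.21 (adjusted p = 7.91e-09). Birc3, which encodes an inhibitor of apoptosis, rose by 3.68 ± 0.30 and Bcl2a1d, which has near-identical copies in mice, by 4.62 ± 0.66. Genes that promote death rose as well, Fas by 3.08 ± 0.42 and Bcl2l11, which encodes BIM, by 2.68 ± 0.33. Bmf, which encodes another BH3-only protein, stood at 0.67, 0.87 and 0.70 (albumin) and -5.44, -4.27 and -5.76 (LPS) and fell by 5.90 ± 0.54 (adjusted p = 1.91e-06). The fall of Pmaip1, which encodes NOXA (-1.47 ± 0.46, adjusted p = 0.0265), was lost without any 1 albumin array and without LPS array b or c. Cflar had every LPS array above every albumin array, and in Bmf every LPS array lay below every albumin array.

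Genes of the cell cycle and DNA replication fell in 12 of 36 cases (33.3%) and rose in 3 (8.33%), with a median of -0.94. Of all genes 16.3% fell and 12.3% rose. E2f2, which encodes a transcription factor of the entry into S phase, stood at 0.09, 0.13 and 0.09 under albumin and -2.84, -3.50 and -3.72 under LPS and fell by 3.45 ± 0.31 (adjusted p = 1.54e-06). Gmnn, which encodes the replication licensing inhibitor geminin, stood at 0.23, 0.21 and 0.19 (albumin) and -3.27, -2.61 and -2.54 (LPS) and fell by 3.02 ± 0.50 (adjusted p = 0.000395), and Cdc20, an activator gene of the anaphase-promoting complex, fell by 2.67 ± 0.69. Cdc6, a licensing gene, stood at -0.02, -3.997 and -5.36 on LPS arrays a to c, with array a near its albumin arrays (-0.15, -0.14 and -0.20) and arrays b and c far below. It was not called (-2.96 ± 1.26, adjusted p = 0.0981) and was called without LPS array a (-4.51, adjusted p = 0.00898). The fall of Cdkn2c (-2.26 ± 0.67) was lost without any 1 albumin array and without LPS array a, with adjusted p from 0.0509 to 0.0793. Ccnd2, which encodes cyclin D2, stood at -0.26, -0.42 and -0.25 (albumin) and 4.00, 2.39 and 1.91 (LPS) and rose by 3.08 ± 0.66 (adjusted p = 0.00267). Tyms, the thymidylate synthase gene, rose by 2.21 ± 0.30 and the cell cycle inhibitor gene Cdkn1a by 1.58 ± 0.37. DNA repair genes and p53 targets fell in 8 of 21 cases (38.1%) and rose in 2 (9.52%), with a median of -0.58. Msh6, a mismatch repair gene, stood at -0.28, -0.21 and -0.28 (albumin) and -3.39, -3.48 and -3.24 (LPS) and fell by 3.11 ± 0.26 (adjusted p = 1.05e-06). Brca2 fell by 3.06 ± 0.64, the p53 target genes Zmat3 and Sesn1 by 2.81 ± 0.49 and 2.41 ± 0.15, and Ogg1, which encodes a glycosylase for oxidized guanine, by 2.22 ± 0.44. Ung, which encodes a uracil glycosylase, rose by 1.17 ± 0.20. The rise of Ccng2 (1.50 ± 0.49, adjusted p = 0.0343) was lost without any 1 albumin array and without LPS array b or c, with adjusted p from 0.0716 to 0.138. Ccnd2 had every LPS array above every albumin array, and in E2f2, Gmnn and Msh6 every LPS array lay below every albumin array.

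Of 20 lysosomal genes 4 rose and 3 fell, and without LPS array a, or without any 1 albumin array, 1 fell. Tfeb, which encodes the master regulator of lysosomal genes, stood at 0.28, 0.25 and 0.34 under albumin and -3.74, -2.65 and -2.47 under LPS and fell by 3.24 ± 0.33 (adjusted p = 5.91e-06). Npc2, which encodes a cholesterol carrier of the lysosome, rose by 0.87 ± 0.14, the cathepsin gene Ctsz by 0.72 ± 0.15 and Lamp2 by 0.55 ± 0.13. The falls of Manba and Mcoln1 (adjusted p = 0.0344 and 0.0275) were lost without LPS array a and without any 1 albumin array, and that of Mcoln1 also without LPS array b. In the integrated and ER stress response 2 of 17 (11.8%) rose and 1 (5.88%) fell, against the same shares of all genes. Hspa5, which encodes the ER chaperone BiP, stood at -0.26, -0.26 and -0.27 (albumin) and 1.21, 0.73 and 0.49 (LPS) and rose by 1.07 ± 0.19 (adjusted p = 0.000715). Ddit3, which encodes CHOP, was not called (-1.21 ± 0.60, adjusted p = 0.158). The rise of Ppp1r15a (adjusted p = 0.0344) was lost without any 1 albumin array and without LPS array a or c, and the fall of Ddit4 (adjusted p = 0.0115) without LPS array a (adjusted p = 0.0614), while 2 genes of this list fell without LPS array c. Hspa5 had every LPS array above every albumin array, and in Tfeb every LPS array lay below every albumin array.

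**Figure D5:**
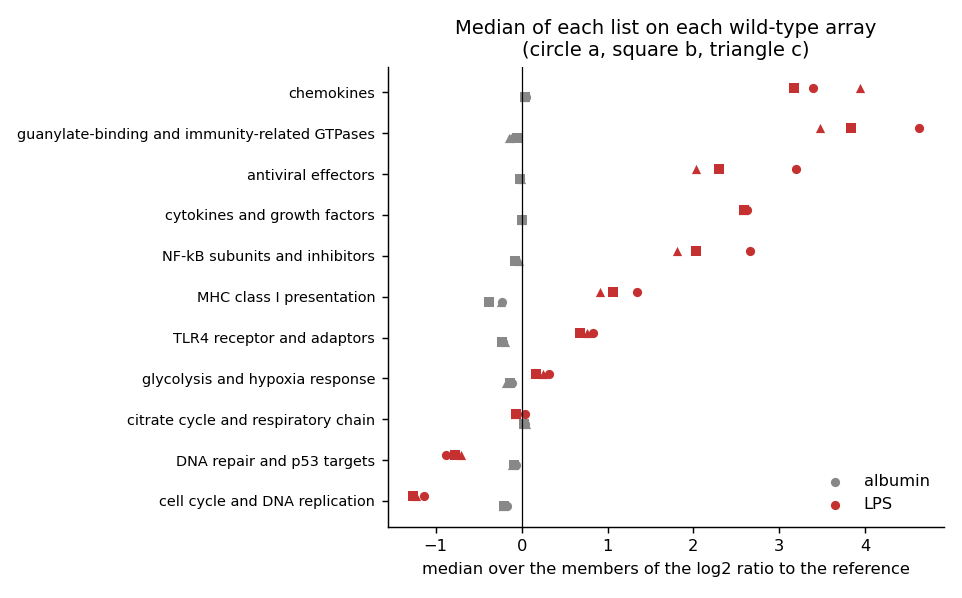
Median log2 ratio to the untreated reference over the members of 11 gene lists on each albumin array (grey) and each LPS array (red), with 1 symbol shape per array letter. The LPS medians of the guanylate-binding and immunity-related GTPases run from 3.47 to 4.63 and those of the cell cycle list from -1.26 to -1.14, while every albumin median shown lies within 0.4 of 0.

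Families of genes grouped by their symbol differed in the share that fell. Over all genes 12.3% rose and 16.3% fell. Of 82 mitochondrial ribosomal protein genes 43 (52.4%) fell and 4 rose, with a median difference of -0.38. With 3 other ways of scaling or treating zeros the number that fell was 35 to 40. Of 156 genes with the symbols of cytosolic ribosomal proteins 55 (35.3%) fell and 15 rose, and 33 fell after each array was scaled to the median of its values other than 0. Of 367 zinc finger genes named Zfp 108 (29.4%) fell and 30 rose. Of 45 proteasome subunit genes 19 (42.2%) rose and 0 fell, and 7 of 12 poly-ADP-ribose polymerase genes and 8 of 11 schlafen genes, many of them interferon-induced, rose while 0 fell. Of 72 Rab GTPase genes 20 (27.8%) rose and 17 (23.6%) fell, and 11 fell without LPS array a. Olfactory receptor genes were counted for comparison. Of 1096 such genes 49 were called higher and 51 lower (9.12% together, against 28.6% of all genes). These counts depended on the processing: they were 89 and 112 after quantile normalization, 66 and 36 after scaling to the median of values other than 0, and 20 and 14 with values of 0 as missing. Their calls had a median size of 1.05, and 4 (0.365% of these genes) had a size of 2 or more, against 5.22% of all genes. In 23 of them, 10 higher and 13 lower, all LPS arrays were at exactly 0. The number called higher was 30 without LPS array b and 27 without LPS array c, and the number called lower was 32 without LPS array a and 27 without LPS array b. Among genes at 0 on none of the 6 arrays (12664) 45.0% were called, and among those at 0 on 1 to 5 of them (8442) 8.65%.

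Markers of other cell types were measured beside these groups. Of 15 neutrophil markers 2 were called higher and 1 lower, of 8 B cell markers 0 and 2, of 10 T and NK cell markers 2 and 0, of 7 erythroid markers 1 and 0, of 10 dendritic cell markers 1 and 1, of 8 mast cell and basophil markers 1 and 1, and of 11 stromal and endothelial markers 3 and 0. These counts are to be read against all genes, of which 12.3% were called higher and 16.3% lower. Whether any list differed from those shares was not tested. The sum over the neutrophil markers ran from -0.81 to 0.78 on the albumin arrays and from 3.92 to 11.0 on the LPS arrays. For the mast cell and basophil markers the sums ran from 0.46 to 2.70 and from 4.52 to 6.35, and for the B cell markers from -0.60 to 0.71 and from -3.53 to -1.94. In each of these lists the groups overlapped without 1 gene. Without Hdc the mast cell sums ran from -0.07 to 2.19 and from -0.47 to 1.48. Without Vpreb1 the B cell sums ran from -1.06 to 0.16 and from -1.51 to 0.01. Without Lcn2 the neutrophil sums ran from -1.15 to 0.79 and from 0.72 to 8.15, which overlapped only narrowly. In 5 of the 15 neutrophil markers, Lcn2 included, every LPS array lay above every albumin array. In 1 marker every LPS array lay below. Over all genes this held for 19.9% and 27.3%. The genes left out were chosen after their values were seen, as those with the largest difference. The sums of the 2 groups overlapped for the T and NK cell (-1.39 to 2.46 and 0.11 to 2.51), erythroid (0.43 to 3.00 and -2.68 to 1.18), dendritic cell (2.19 to 4.74 and 4.52 to 6.14) and stromal and endothelial markers (1.41 to 2.89 and -2.61 to 9.21). Lcn2, which macrophages also express, rose by 2.85 and Ngp by 1.75. Camp (1.27 ± 0.82), S100a8 (1.35 ± 0.49) and Ltf (0.67 ± 0.38) were not called, although their LPS arrays all lay above their albumin arrays. The granule genes Mpo (0.20 ± 0.22) and Prtn3 (-0.28 ± 0.32) were not called either, and Elane fell by 0.735 ± 0.23. The T cell receptor complex gene Cd3e was not called (-0.14 ± 0.34), and Ms4a1, Clec9a, Fcer1a, Gata2 and Ms4a2 were at 0 on all 6 arrays. Hdc, which encodes histidine decarboxylase and counts among the mast cell markers, stood at 0.44, 0.52 and 0.51 under albumin and 5.13, 4.99 and 4.87 under LPS and rose by 4.51 ± 0.41 (adjusted p = 2.03e-06), with the arrays of each group close together. Vpreb1, which encodes a part of the pre-B cell receptor, stood at 0.35, 0.55 and 0.46 and at -1.56, -2.02 and -1.95 and fell by 2.29 ± 0.30 (adjusted p = 5.45e-05). Among the stromal and endothelial markers Kdr rose by 2.42 ± 0.58, and the other calls, Pdgfrb and Dcn, were at 0 on most or all albumin arrays. The number called higher among them was 1 without any 1 albumin array or without LPS array c, and 1 B cell marker was lower without LPS array b. The call of 1 neutrophil marker as lower was lost without each array except LPS array c, and the calls of 1 erythroid marker (without albumin array c or LPS array c), 1 dendritic cell marker as higher (without albumin array a or b or LPS array a or b) and 1 mast cell marker as lower (without albumin array a or c or LPS array a or b) were lost as well. In RNA of whole cultures a smaller share of cells of a type and less RNA per cell cannot be told apart, and the part of other cells in the gene groups above was not tested.

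Nrf2-/- macrophages under LPS were set against the wild type under LPS (4 arrays against 3) to see whether these LPS levels differed without NRF2, the antioxidant transcription factor. Albumin controls were wild type only, so no LPS response could be formed within the knockout. Nfe2l2, which encodes NRF2, stood at -0.22, 0 and 0 under albumin, at -0.59, -0.45 and 0.16 under LPS in the wild type and at 0 on all 4 knockout arrays, and its ratios do not check the deletion. Of 22485 genes 0 were called higher and 1 lower in the knockout (0.00445%), while 269 were higher and 288 lower at an unadjusted p under 0.05 by limma. The called gene was Prm1, which encodes a sperm protamine and is named because it was the only call. It stood at 2.54, 1.91 and 1.17 on the wild-type LPS arrays, at -0.94, -0.84, -0.36 and -0.62 on the knockout LPS arrays and at -0.06, -0.01 and -0.01 under albumin (knockout minus wild type -2.56 ± 0.25, adjusted p = 0.00116). With the array letter as a replicate block 0 genes were called lower, so the call of Prm1 was lost. Without wild-type LPS array a 3 genes were lower, and without LPS array b 2 were. For the genes with the highest values the knockout arrays covered the wild-type levels or lay close to them. On the 4 knockout arrays Il6 ran from 11.22 to 11.59, Ptgs2 from 8.70 to 9.53, Il1b from 7.37 to 8.07 and Adamts4 from 7.49 to 8.63, against wild-type values of 10.93, 11.59 and 10.35, 8.51, 9.30 and 8.56, 7.88, 7.63 and 7.45 and 8.13, 7.97 and 7.91. Among genes that fell, Klf10 ran from -4.55 to -4.10 in the knockout, above the wild-type values (-4.85, -4.66 and -4.63), Cables1 from -5.02 to -4.57, and Bmf from -4.74 to -3.12, which includes arrays above each wild-type value (-5.44, -4.27 and -5.76). A difference that does not pass the threshold with 4 against 3 arrays does not show that the genotypes respond alike.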

How the data were processed

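The authors deposited, for each array, 1 value per feature, read here as the log10 ratio of sample (Cy5) over reference (Cy3) from its form and range; Agilent Feature Extraction 10.5.1.1 made the arrays' values, per the submitters' processing notes, with no genome build stated. Scanner intensities were not used here, so background and saturation are unknown, and many features are listed at exactly 0. Values were multiplied to log2 and averaged per gene over its probes: of 44397 features 33026 had 1 gene symbol and 11371 had none, which gave 22485 genes (6138 with several probes). A linear model with limma 3.58.1 in R 4.3.3 was fitted to all 18 arrays in 5 groups, with empirical Bayes, two-sided tests and Benjamini-Hochberg adjustment over all genes, and was tested on simulated data. With 200 genes changed 2-fold, it recovered 31% for LPS against albumin and 34.5% for knockout against wild type. With 4-fold changes it recovered 80% and 88%. False calls made up 3.12% to 9.21% of the calls. Summaries used Python 3.11.15 and pandas 2.3.3. The genes, gene lists and markers were chosen with earlier results of these data known. Genes named are a set of LPS response and macrophage genes, the 12 largest non-overlapping rises and falls, the 8 largest rises from albumin arrays at 0, and per list up to 5 called members in each direction and 3 not called. Marker genes, Prm1 and genes far from the reference under albumin were named outside this rule. 1 list is not reported here. Alternatives changed the arrays fitted, the treatment of zeros, scaling, probes, prior, minimum change and array weights, added the array letter as a block, or left out 1 array.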

Additional observations from a re-analysis of the deposited data

How the results depend on the processing

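The counts of LPS against albumin (2768 higher, 3665 lower) stayed within 1.5 times in each alternative except a test for a change above 1 (limma's treat), which called 535 and 452. Leaving out 1 array gave 2347 to 2401 higher and 3037 to 3188 lower. The other alternatives gave 2588 to 3930 higher and 3187 to 5277 lower, the lowest with zeros as missing and with scaling to the median of values other than 0, the highest with array weights. The balance of calls depended on the scaling: 43% were rises, and 50.1% after scaling to the median of values other than 0. The array letters are not said to pair the samples. Deviations of same-lettered albumin and LPS arrays correlated at -0.0078, -0.0085 and 0.0152. With 3 arrays a group these values cannot decide whether samples were paired. With the letter as a replicate block 3301 genes were higher and 4382 lower, and in the knockout against wild-type comparison 0 were lower in place of 1, which was Prm1. That comparison gave 0 higher and 1 to 3 lower when 1 array was left out, and 3 higher and 3 lower without all LPS-treated arrays lettered a, a choice made after seeing the data. Of the 234 named genes that were called, 190 kept their call without each array in turn. Calls of genes described above were also lost for Adora3, Ccng2, Gpr84, H2-Aa, Hk2, Marco, Mef2c, Pla2g4a, Slc7a11 and Txnip with the 6 arrays fitted alone, for Adora3, Ccng2, Gpr84, Gpx1, Rgs2 and Txnip after quantile normalization, for Aldoc, Itgb3, Lta4h, Manba, Mcoln1 and Tgfbr1 after scaling to the median of values other than 0, for Fdft1 and Itgb3 with zeros as missing, for Rgs2 and Sdhb with 1 probe per gene and for Lta4h with a trended robust prior. Tlr4, not called above, was called lower with the 6 arrays fitted alone (-0.50, adjusted p = 0.00198). Cebpa, not called above, was called lower there (adjusted p = 0.0332), with the replicate block (adjusted p = 0.0189), with zeros as missing (adjusted p = 0.0371) and with genes at 0 on 3 or more arrays left out (adjusted p = 0.0401). More genes not called above gained a call in 1 or more alternatives, among them Cd86, Bst2, Egr1, Arg2, Ddit3, Cx3cr1, Calr, Cxcl14, Pycard, Cxcl5, Il1f6 and Cdc6. Csf2 and Csf3 were called higher with the replicate block (adjusted p = 0.0278 and 0.0376). The sign turned after quantile normalization for Saa3 (-1.18), which was called, and for Actb (-0.077), Adm (-0.06), Mrc1 (0.12) and Nfkbid (-0.11), which were not. Hmox1 was -0.27 with 1 probe per gene. With 1 array left out Pdia3 ran from -0.066 (without albumin array b, and -0.011 without LPS array b) to 0.09, Timd4 from -0.05 (without LPS array c) to 1.18 and Tlr12 from -0.37 to 0 (without LPS array c), none of them called. The cause of these changes was not tested. With 3 arrays a group, no dye swap and no scanner signal, the number of arrays limits the precision, and dye effects and probes below background could not be checked.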

Other observations

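On the albumin arrays some genes stood far from the untreated reference. Albumin, the dyes and the reference RNA itself cannot be told apart here, since every array set a sample against that reference. Syt10, a synaptotagmin gene, stood at 2.99, 3.17 and 2.66 on the albumin arrays and at 0.51, 0.58 and -0.04 on the LPS arrays, and its call (-2.59 ± 0.86, adjusted p = 0.0347 by limma) came from albumin arrays that were high and LPS arrays that lay near 0. Pam, which encodes an enzyme that amidates peptides, stood at -1.997, -2.26 and -2.12 under albumin and at 0.09, 0.08 and 0.38 under LPS, so that it was called higher (2.31 ± 0.44, adjusted p = 0.00102) with LPS arrays close to the reference. Slpi, which encodes a secreted inhibitor of neutrophil elastase, stood at 2.02, 2.43 and 2.23 under albumin and at 3.07, 3.27 and 1.26 under LPS, and was not called (0.31 ± 0.91, adjusted p = 0.891), with LPS array c below all albumin arrays. Among all genes 382 had an albumin mean at or above 1 and 474 at or below -1, against 1496 and 1927 for the LPS mean. Of the 6433 called genes 1837 had an albumin mean farther from 0 than their LPS mean, 868 of them called higher and 969 called lower.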
